A study of Mus musculus with 8 samples.

Results

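Glucose reaches the fibroblast cytosol through facilitative transporters, is trapped by hexokinase as glucose 6-phosphate, and is then split and oxidized to pyruvate by glycolysis or diverted into the pentose phosphate pathway, which supplies NADPH and ribose. Galactose joins at the hexose phosphates, and the malate-aspartate and glycerol phosphate shuttles carry the electrons of glycolytic NADH into mitochondria. Hypoxia-inducible factors, Myc and p53 are well-known regulators of several of these genes, and many of the enzymes exist as isoforms encoded by separate genes. The 34 genes described here were chosen by symbol as the transporters and enzymes of these routes, and all 34 were found among the 55367 genes of the count table. Of these, 31 had at least 10 counts in at least 3 of the 8 libraries and were tested together with every other gene that passed, 12137 genes in all. The remaining 3 were Slc2a3, a high-affinity glucose transporter of neurons, with at most 8 counts in a library, Aldoc, the brain aldolase, with at most 14, and Gpd1, the cytosolic glycerol phosphate dehydrogenase, with at most 6.

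The samples were 8 poly(A) RNA-seq libraries of 1 mouse fibroblastic reticular cell (FRC) line, 2 for each of 4 conditions. FRCs are the fibroblasts that build the conduit network of lymph nodes, and the line came from lymph nodes of p53ER/ER mice on the C57BL/6 background. All cultures received RPMI medium with 2% serum and antibiotics and were harvested after 4 days, with a change of medium halfway. TCM-treated FRCs grew in RPMI conditioned by B16.F10 melanoma cells, a mouse tumor line, and CCM-treated FRCs grew in RPMI conditioned by FRCs themselves. LA-treated FRCs received fresh RPMI with 15 mmol/L lactic acid, and vehicle-treated FRCs received fresh RPMI with the same amount of water. The study calls the 2 libraries of a condition biological replicates, but all came from a single line. The errors below therefore describe variation between cultures of that line, with 1 spread per gene estimated over all 4 conditions. Where 1 condition varied more than the others, this shared spread can be too small for it and too large for the others. TCM was read against CCM, because both media had been exposed to cells, and LA against vehicle.

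Library totals ran from 8232889 to 14107964 counts on genes, so that the floor of 3 counts corresponded to 0.212 to 0.355 CPM. CPM values are counts relative to library size and were scaled with TMM factors, which were 0.938 and 0.939 for the TCM libraries and between 1.006 and 1.04 for the others. Of 10 FRC marker genes, 7 were tested: Pdpn, Vcam1, Pdgfra, Pdgfrb, Ltbr, Col1a1 and Il7. The 10 summed to 13449 to 18067 CPM, nearly all of it Col1a1. Il7 was at only 0.559 to 1.83 CPM, and Thy1, which was not tested, was at 0.0925 to 1.75 CPM. Ccl21a was at 0 in every library and Ccl19 was at or under the floor in every library, although both are defining chemokines of FRCs in vivo. The 7 melanoma markers summed to 1.82 to 3.67 CPM across all libraries, with Tyr at 0 throughout, and Tyrp1 was seen only with TCM, at 0.632 and 0.327 CPM. The 5 leukocyte markers summed to 0.218 to 1.86 CPM, all of it Cd68. The endothelial markers summed to 1.01 to 2.18 CPM.

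With TCM, transcripts of enzymes along most of the glycolytic pathway were higher than with CCM. Of the 31 tested members, 12 were called higher than with CCM and none lower, where a call required P under 0.05 after adjustment over all tested genes and a log2 fold change (FC) beyond 0.39 in edgeR's quasi-likelihood test. Over all genes tested, 8.83% were called higher and 10.2% lower. No member had a lower level at an unadjusted P value under 0.05, and DESeq2 also called none lower. Among the 10 enzyme steps from glucose to pyruvate, 9 had at least 1 called gene, the exception being glyceraldehyde phosphate dehydrogenase. The median log2 FC of the tested members was 0.33, against 0.00 over all tested genes. In 24 of the 31 members both TCM libraries were above both CCM libraries, an ordering shown by 27.8% of all tested genes, and in none were both below, an ordering shown by 30.5% of all tested genes. Summed over the 34 members, the level was 4777 and 4965 CPM with CCM and 8050 and 7350 CPM with TCM, a ratio of means of 1.58. The 12 genes were also called with DESeq2, and without TMM factors all kept their sign and 10 kept their call. Bulk counts do not tell more cells of a kind from more RNA per cell, and 20 of the 34 members overlap another annotated gene, whose reads could be mixed in because the strand setting of the counting was not given in the sources used here.

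**Figure D1:**
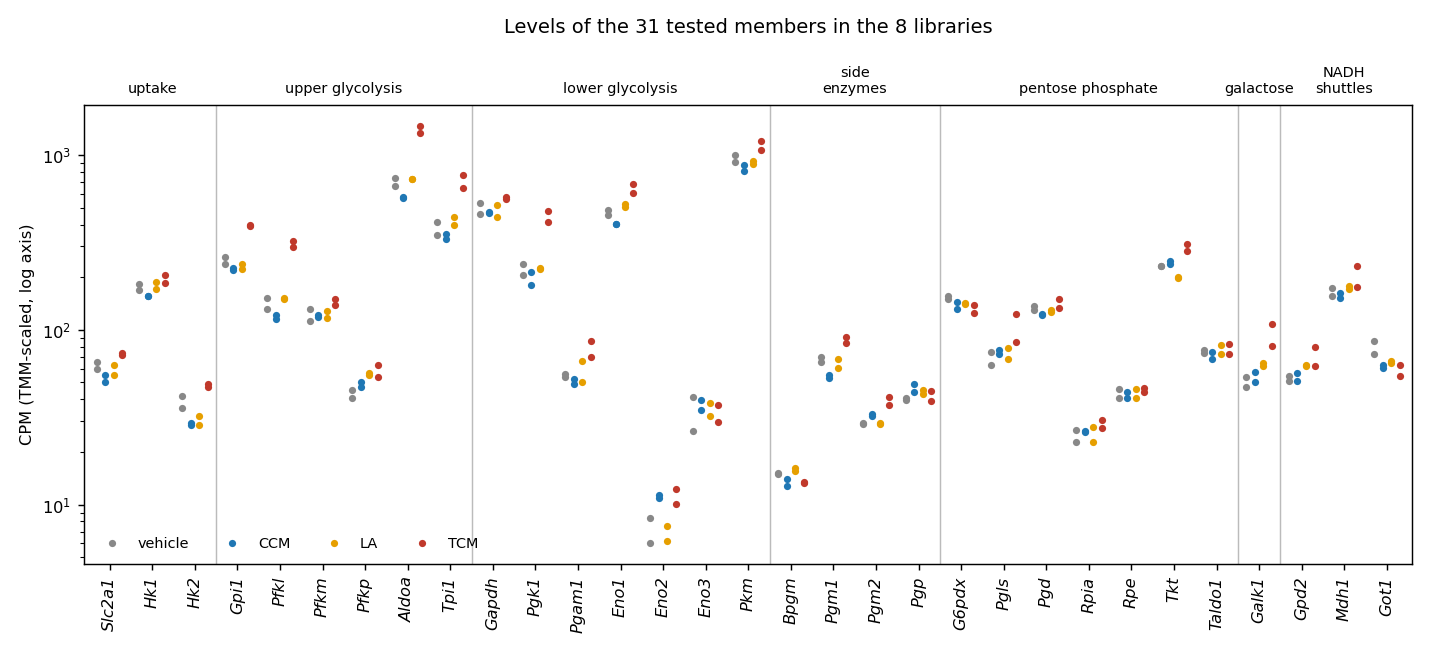
Levels of the 31 tested members in CPM on a log axis, ordered by pathway step, with 1 point for each of the 8 libraries and colors for the 4 conditions. The TCM points of Pfkl, Aldoa, Tpi1, Pgk1 and Gpi1 lie above all other points of the same gene, while the pentose phosphate gene G6pdx has its TCM points among or under the others.

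The promoters of the members were searched for ACGTG on either strand, the core of the hypoxia response element. RefSeq windows of 300 bases around transcription start sites (GRCm38.p6) were matched for 32 of the 34 members. The letters were present in at least 1 window of 16 of the 32 members (50.0%), beside 29.8% of 9385 tested genes with a window and 21.8% of all 27025 genes with one. The longer CACGTG, which contains ACGTG and is the E-box of Myc and USF factors, was present in 2 of 32 members (6.2%), beside 11.9% of the tested genes. A match is a description of letters and no evidence of binding. Of the 12 genes called with TCM, 8 held ACGTG, and Pfkl, Gpi1, Tpi1 and Eno1 did not. Galk1 is among the 8, but both of its matches lay within 1 CACGTG. Of the 19 tested members that were not called, 7 held ACGTG. The 3 windows below belong to the called members with the smallest adjusted P values that hold a match, given 5′ to 3′ on the strand of the gene, with each match in capitals (CACGT where it lies on the opposite strand). They are Aldoa at chr7:126799205-126799504 on the minus strand, Pgk1 at chrX:106186850-106187149 on the plus strand and Pgm1 at chr4:99929201-99929500 on the plus strand.
Aldoa: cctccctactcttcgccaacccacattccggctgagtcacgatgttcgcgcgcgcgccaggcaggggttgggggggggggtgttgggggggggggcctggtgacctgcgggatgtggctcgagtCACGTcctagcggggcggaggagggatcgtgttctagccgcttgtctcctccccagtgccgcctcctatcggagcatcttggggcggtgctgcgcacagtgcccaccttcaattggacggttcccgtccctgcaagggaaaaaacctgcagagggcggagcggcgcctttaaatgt
Pgk1: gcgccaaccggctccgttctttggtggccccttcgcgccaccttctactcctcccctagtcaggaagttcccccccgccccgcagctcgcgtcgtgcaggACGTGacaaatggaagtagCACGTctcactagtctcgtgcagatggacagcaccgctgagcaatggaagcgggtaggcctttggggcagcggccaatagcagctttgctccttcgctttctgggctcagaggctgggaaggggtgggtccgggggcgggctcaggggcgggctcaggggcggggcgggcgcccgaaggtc
Pgm1: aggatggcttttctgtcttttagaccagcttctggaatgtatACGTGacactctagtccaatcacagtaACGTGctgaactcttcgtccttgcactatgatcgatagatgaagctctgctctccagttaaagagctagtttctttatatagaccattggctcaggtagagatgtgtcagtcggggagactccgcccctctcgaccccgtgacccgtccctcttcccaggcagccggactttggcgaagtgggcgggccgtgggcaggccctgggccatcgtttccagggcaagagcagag
Pgk1 and Pgm1 held 2 matches each, at -150 and -131 and at -208 and -181 from the start site, and Aldoa held 1, at -126 in this window of the 3 that RefSeq gives it. The log2 FCs of these genes with TCM were 1.29, 1.18 and 0.69, and Pfkl, with no match in its window, had the largest of all members.

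Glucose entry and trapping were measured through Slc2a1, which encodes the widespread transporter GLUT1, and the hexokinases Hk1 and Hk2. Slc2a1 (chr4:119108711-119137983, GRCm38) was at 65.3 and 59.9 CPM in vehicle libraries, 50.4 and 55.2 in CCM libraries, 62.7 and 55.0 in LA libraries, and 71.5 and 73.2 in TCM libraries. Its TCM libraries were the 2 highest and its CCM libraries were at the low end, and its log2 FC over CCM was 0.45 ± 0.108 (SE, adjusted P = 0.012). Without CCM replicate 1 the value was 0.39 and no longer passed (adjusted P = 0.136). Hk2 (chr6:82725025-82774454), the inducible hexokinase, was at 41.6 and 35.9 CPM in vehicle libraries and 29.2 and 28.4 in CCM libraries. It was at 32.3 and 28.7 CPM in LA libraries and 47.2 and 48.9 in TCM libraries. It rose by 0.74 ± 0.115 on the log2 scale over CCM (adjusted P = 0.00108), and the vehicle libraries stood between those of CCM and TCM without overlapping either. Hk1, the constitutive hexokinase, had a log2 FC of 0.33 ± 0.0968 (adjusted P = 0.0316), which passed the P value but not the fold threshold, although it passed both without TCM replicate 1 (0.41, adjusted P = 0.00584). Of this step, 2 of 3 tested genes were thus called.

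Hexokinase shares were compared per kilobase of the longest coding transcript, since longer transcripts collect more reads. On that scale Hk1 made up 84.0 and 86.8% of the hexokinase signal in vehicle libraries, 87.3 and 87.7% in CCM libraries, 87.2 and 89.4% in LA libraries, and 83.6 and 84.5% in TCM libraries. Hk1 was therefore the main hexokinase transcript in every library, and the Hk2 share was 12.3 to 12.7% with CCM and 15.5 to 16.4% with TCM. Slc2a1 supplied at least 99.2% of the combined Slc2a1 and Slc2a3 signal in each library.

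Upper glycolysis held the largest changes among the members. Pfkl (chr10:77986947-78010083), the liver-type subunit of phosphofructokinase, which commits glucose to glycolysis, was at 152 and 132 CPM in vehicle libraries, 122 and 116 in CCM libraries, 150 and 153 in LA libraries, and 322 and 297 in TCM libraries. Both TCM libraries were far above the other 6, and the FC over CCM was 2.60 (log2 FC 1.38 ± 0.101, adjusted P = 1.74e-05). Gpi1 (chr7:34201330-34230336), which interconverts glucose 6-phosphate and fructose 6-phosphate, was at 261 and 237 CPM in vehicle libraries, 225 and 221 in CCM libraries, 239 and 222 in LA libraries, and 394 and 396 in TCM libraries. The other conditions lay between 221 and 261 CPM and TCM stood clear of them, with a log2 FC over CCM of 0.82 ± 0.0939 (adjusted P = 0.00015). Gpi1 shares near-identical stretches, of at least 100 bases at 95% identity or more, with 4 other annotated genes. Some of its reads could thus be missing, or part of its counts could belong to these genes.

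Aldoa (chr7:126795234-126800751), the main aldolase of most tissues, which splits fructose bisphosphate and whose promoter window is shown above, was the second most abundant member by mean CPM. It was at 738 and 662 CPM in vehicle libraries, 569 and 576 in CCM libraries, 728 and 731 in LA libraries, and 1464 and 1333 in TCM libraries. The TCM libraries did not overlap any other, the CCM libraries were the 2 lowest, and the log2 FC was 1.29 ± 0.104 (adjusted P = 2.36e-05). The annotation gives the symbol Aldoa to 2 genes, of which ENSMUSG00000030695 is the one placed here. Tpi1 (chr6:124810586-124814296), triose phosphate isomerase, was at 413 and 351 CPM in vehicle libraries, 330 and 355 in CCM libraries, 444 and 398 in LA libraries, and 773 and 649 in TCM libraries. Its TCM libraries again stood apart from the other 6, and the log2 FC over CCM was 1.05 ± 0.124 (adjusted P = 0.000183).

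The other phosphofructokinase genes moved less. Pfkm, the muscle-type subunit, had a log2 FC of 0.26 ± 0.104 (adjusted P = 0.0981), and Pfkp, the platelet-type subunit, had a log2 FC of 0.26 ± 0.113 (adjusted P = 0.121), so neither was called. Per kilobase, Pfkl made up 42.4 and 41.5% of the phosphofructokinase signal in vehicle libraries, 38.3 and 36.4% in CCM libraries, 40.9 and 43.1% in LA libraries, and 57.1 and 55.5% in TCM libraries. The Pfkm share was 48.4 and 49.5% with CCM and 34.4 and 33.8% with TCM. Pfkm thus ranked first with CCM and Pfkl ranked first with TCM. With the merged length of all annotated exons in place of the coding transcript, the mean Pfkl share was 31.0% with CCM and 49.3% with TCM, and Pfkl was still ahead of Pfkm with TCM, at 46.0% for Pfkm. Aldoa made up at least 99.9% of the aldolase signal in every library.

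**Figure D2:**
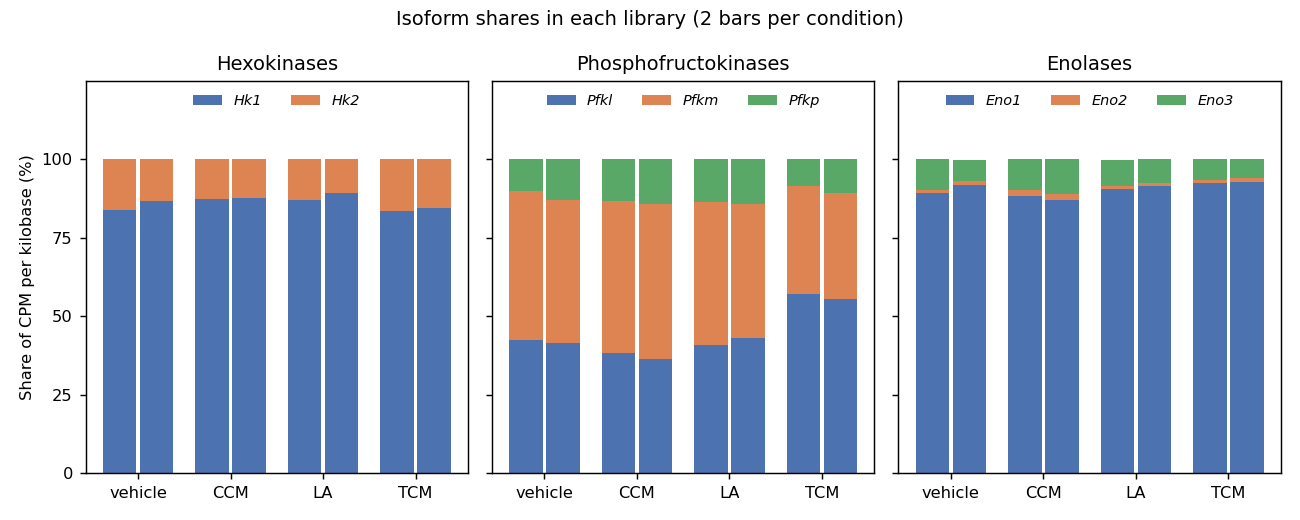
Share of each isoform in the CPM per kilobase of its family (vertical axis, percent) for hexokinases, phosphofructokinases and enolases, with 1 bar per library and 2 bars per condition. The Pfkl share is 57.1 and 55.5% with TCM and at most 43.1% in the other libraries, while the Hk1 and Eno1 shares stay the largest of their families everywhere.

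Lower glycolysis, from glyceraldehyde 3-phosphate to pyruvate, had 4 of 7 tested genes called higher. Pgk1 (chrX:106187100-106203699), phosphoglycerate kinase, which makes the first ATP of the payoff phase, was at 238 and 205 CPM in vehicle libraries, 181 and 213 in CCM libraries, 222 and 225 in LA libraries, and 479 and 416 in TCM libraries. The TCM libraries were the only ones that did not overlap the rest, and the log2 FC was 1.18 ± 0.118 (adjusted P = 6.76e-05). Eno1 (chr4:150236721-150248879), the ubiquitous enolase, was at 488 and 453 CPM in vehicle libraries, 402 and 406 in CCM libraries, 528 and 508 in LA libraries, and 684 and 610 in TCM libraries. The conditions ranked CCM, vehicle, LA and TCM without overlap between them, and the log2 FC of TCM over CCM was 0.68 ± 0.1 (adjusted P = 0.00076).

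Pgam1 (chr19:41911923-41918660), phosphoglycerate mutase, was at 55.7 and 53.7 CPM in vehicle libraries, 49.2 and 52.0 in CCM libraries, 66.1 and 50.6 in LA libraries, and 70.1 and 85.8 in TCM libraries. Its TCM libraries were the 2 highest but differed from each other by more than those of vehicle or CCM, and the log2 FC was 0.62 ± 0.14 (adjusted P = 0.00924), or 0.58 with an adjusted P value of 0.0817 without CCM replicate 1. Pkm (chr9:59656368-59679375), the pyruvate kinase of most cells outside liver and erythrocytes, had the highest mean CPM of all members. It was at 1008 and 919 CPM in vehicle libraries, 809 and 879 in CCM libraries, 931 and 891 in LA libraries, and 1207 and 1073 in TCM libraries. Its log2 FC of 0.43 ± 0.108 (adjusted P = 0.0154) was the smallest of the 12 called. Without TCM replicate 1 this value was 0.35 and under the fold threshold, and without CCM replicate 1 it was 0.38 with an adjusted P value of 0.173. The call was also lost without CCM replicate 2 (adjusted P = 0.0714).

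Gapdh, which oxidizes glyceraldehyde 3-phosphate and produces NADH, was the step that was not called. It was at 533 and 462 CPM in vehicle libraries, 464 and 475 in CCM libraries, 520 and 443 in LA libraries, and 579 and 564 in TCM libraries. The TCM libraries were the highest, yet the log2 FC over CCM was 0.28 ± 0.112 with an adjusted P value of 0.0974. Near-identical stretches of Gapdh were found in 81 other annotated genes, more than for any other member. Reads of Gapdh could thus be missing from its counts, or part of its counts could belong to these genes. Near-identical stretches were also found for Pgk1 in 4 other genes, for Eno1 in 3, and for Tpi1, Pgam1 and Pkm in 1 each. Eno2, the neuronal enolase, was between 6.03 and 12.2 CPM, and Eno3, the muscle enolase, was between 26.5 and 41.4 CPM. In both, the TCM libraries overlapped those of CCM, and per kilobase Eno1 made up 87.2 to 92.8% of the enolase signal.

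A group of side enzymes acts on bisphosphoglycerate, phosphoglycolate or glucose phosphates, and the phosphoglucomutases among them link glycolysis to glycogen and nucleotide sugars. Pgm1 (chr4:99929414-99987294), the main phosphoglucomutase, was at 70.3 and 65.3 CPM in vehicle libraries, 53.3 and 55.2 in CCM libraries, 68.5 and 60.3 in LA libraries, and 91.4 and 83.6 in TCM libraries. It rose by 0.69 ± 0.105 on the log2 scale over CCM (adjusted P = 0.000922), with TCM libraries above all others and CCM libraries below all others. Pgm2 had a log2 FC of 0.27 ± 0.106 (adjusted P = 0.0941). Bpgm, which makes bisphosphoglycerate, and Pgp, a phosphoglycolate phosphatase, were not called, and their TCM libraries overlapped those of CCM. Galk1 (chr11:116008457-116012719), galactokinase, was at 53.6 and 47.3 CPM in vehicle libraries, 50.2 and 57.3 in CCM libraries, 64.2 and 62.3 in LA libraries, and 108 and 80.3 in TCM libraries. Galk1 rose over CCM by 0.81 ± 0.141 on the log2 scale (adjusted P = 0.00216), although the TCM libraries differed from each other by more than the CCM libraries did.

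In the pentose phosphate pathway no gene was called with TCM, although both TCM libraries were above both CCM libraries in 5 of its 7 tested genes, an ordering shown by 27.8% of all tested genes. The difference between this pathway and glycolysis was not tested. In edgeR 3 had an unadjusted P value under 0.05 (Pgd, Pgls and Tkt), and DESeq2 called 1, Pgls. G6pdx, the rate-limiting dehydrogenase of the oxidative arm, had a log2 FC over CCM of -0.07 ± 0.0953 (adjusted P = 0.636). Pgd, the next dehydrogenase of that arm, had a log2 FC of 0.22 ± 0.0921 (adjusted P = 0.111). Pgls, the lactonase between them, had a log2 FC of 0.48 ± 0.159 (adjusted P = 0.0528), with TCM libraries at 123 and 85.5 CPM and CCM libraries at 72.6 and 76.9. The first TCM library thus carried most of the Pgls difference, and without the second TCM library the log2 FC was 0.72 and passed the call.

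In the non-oxidative arm, Tkt, transketolase, was at 231 and 231 CPM in vehicle libraries, 237 and 247 in CCM libraries, 197 and 201 in LA libraries, and 309 and 283 in TCM libraries. The TCM libraries were the highest and the LA libraries the lowest, with no overlap among LA, the 2 controls and TCM. Its log2 FC of TCM over CCM was 0.29 ± 0.0897 (adjusted P = 0.0397), under the fold threshold. Rpia, Rpe and Taldo1, which interconvert pentose phosphates and return them to glycolysis, were not called, and the median log2 FC of the 7 genes was 0.15. Across the pathway the summed level was 713 and 722 CPM with CCM and 865 and 789 CPM with TCM, a ratio of means of 1.15, against 2.11 for upper and 1.45 for lower glycolysis.

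Of the shuttle genes, none of the 3 tested was called in either direction. Gpd2, the mitochondrial glycerol phosphate dehydrogenase, had a log2 FC of 0.39 ± 0.126, just under the fold threshold, with an adjusted P value of 0.0488, and it was called without TCM replicate 1 (0.56). Mdh1, cytosolic malate dehydrogenase, had a log2 FC of 0.36 ± 0.126 (adjusted P = 0.0637), with TCM libraries at 232 and 175 CPM against 153 and 163 with CCM, and it was called without TCM replicate 2 (0.55). Got1, cytosolic aspartate aminotransferase, had a log2 FC of -0.08 ± 0.115 (adjusted P = 0.684), and its highest libraries were those of vehicle, at 86.1 and 72.5 CPM. In this group 2 genes had an unadjusted P value under 0.05, and DESeq2 called none.

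No such increase was measured with lactic acid. With LA, none of the 31 members was called against vehicle in edgeR, while 1.31% of all tested genes were called higher and 1.24% lower. At an unadjusted P value under 0.05, 2 members were higher (Galk1 and Pfkp) and 3 lower (Got1, Hk2 and Tkt), and DESeq2 called none. The median log2 FC of the members was 0.02. Both LA libraries were above both vehicle libraries in 6 members, beside 23.7% of all tested genes, and below in 5, beside 24.2%. The summed level of all members was 5652 and 5141 CPM with vehicle and 5552 and 5292 CPM with LA.

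The 12 genes called with TCM had log2 FCs between -0.35 and 0.33 with LA. For Pfkl the value was 0.09 ± 0.0998, for Aldoa 0.06 ± 0.103, for Tpi1 0.14 ± 0.123 and for Pgk1 0.02 ± 0.118. For Eno1 it was 0.14 ± 0.1, for Pgam1 0.09 ± 0.141, for Pkm -0.08 ± 0.108, for Gpi1 -0.11 ± 0.0938, for Slc2a1 -0.09 ± 0.108, and for Pgm1 -0.08 ± 0.105. The 2 extremes were Hk2, at -0.35 ± 0.116 (adjusted P = 0.175), and Galk1, at 0.33 ± 0.143 (adjusted P = 0.327). None of the 12 passed the thresholds with LA. Among the members that TCM did not call, Pfkp was at 0.36 ± 0.114 with LA (adjusted P = 0.144), Got1 at -0.27 ± 0.113 (adjusted P = 0.304), Tkt at -0.22 ± 0.0902 (adjusted P = 0.296), and Gapdh at -0.05 ± 0.112. At 2 libraries per condition the standard errors of the members were 0.0902 to 0.209, so changes of the size of the fold threshold could have been missed.

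**Figure D3:**
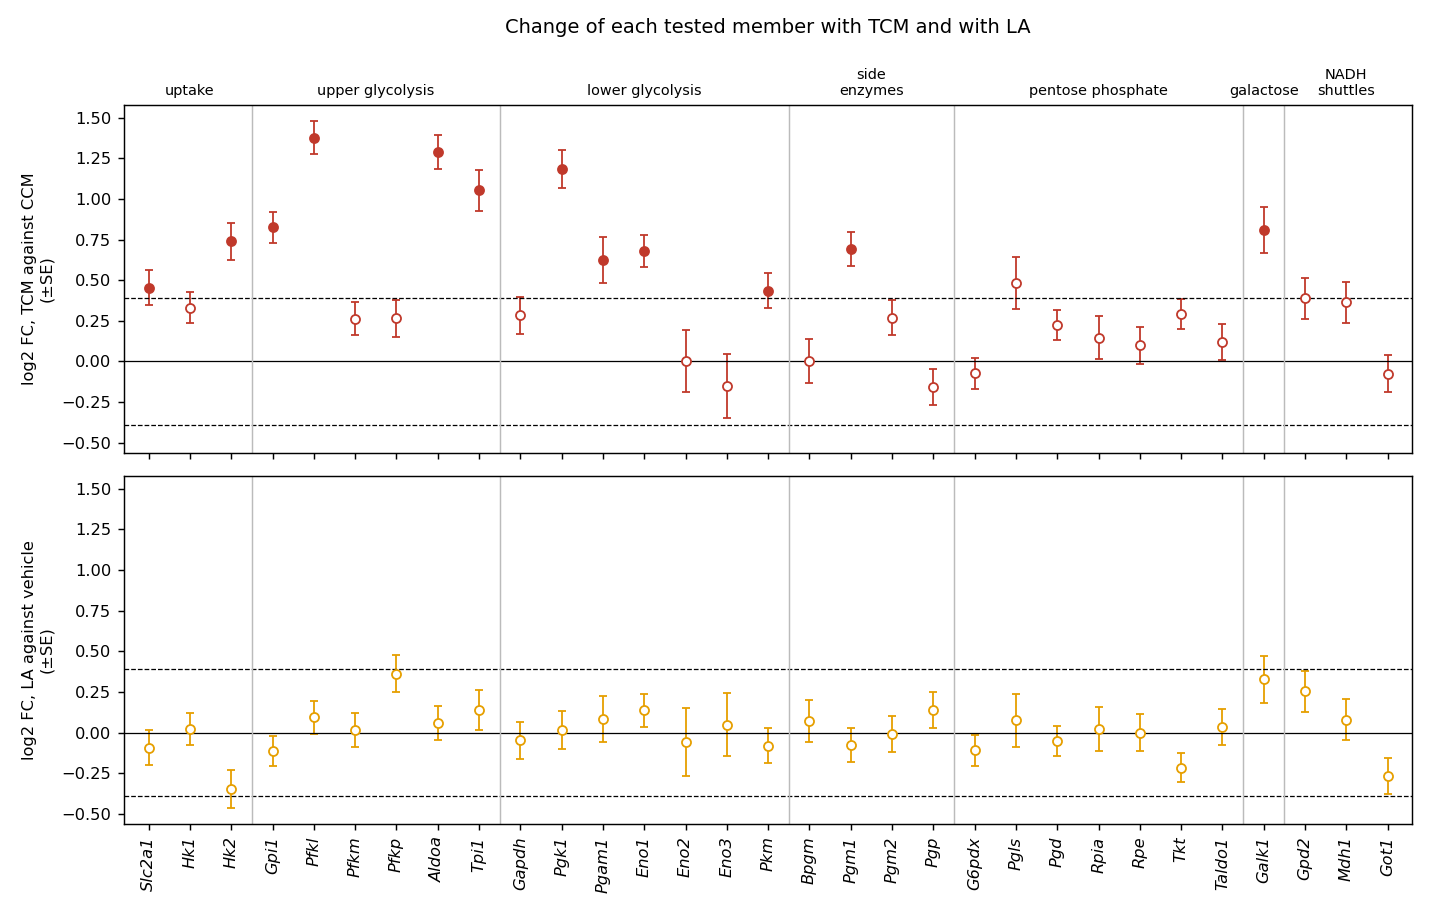
Log2 FC with its SE for each of the 31 tested members, TCM over CCM in the upper panel and LA over vehicle in the lower, ordered by pathway step. Filled points passed both thresholds, open points did not, and dashed lines mark a log2 FC of 0.39 in either direction: 12 points are filled with TCM and none with LA.

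The difference between the 2 effects was tested directly, as TCM over CCM minus LA over vehicle in the fit of all 8 libraries, in which the effects share no library. In this test 10 members were called with a larger value for TCM and none with a smaller one, against 4.45% and 6.00% of all tested genes, and neither an unadjusted P value under 0.05 in edgeR nor DESeq2 gave a member with a smaller value. By size, 9 of the 10 were Pfkl (difference 1.28 ± 0.141 on the log2 scale, adjusted P = 0.000208), Aldoa (1.23 ± 0.146), Pgk1 (1.17 ± 0.166), Hk2 (1.09 ± 0.164), Gpi1 (0.94 ± 0.133), Tpi1 (0.91 ± 0.174), Pgm1 (0.77 ± 0.149), Slc2a1 (0.55 ± 0.152) and Eno1 (0.54 ± 0.142). The remaining one was Tkt, at 0.51 ± 0.127 (adjusted P = 0.0269), which combined an upward value with TCM and a downward value with LA, neither of them called alone. For 3 genes called with TCM the difference itself was not called: Pkm at 0.51 ± 0.153 (adjusted P = 0.0556), Pgam1 at 0.54 ± 0.199 (adjusted P = 0.119) and Galk1 at 0.48 ± 0.2 (adjusted P = 0.166). DESeq2 called the difference for Pkm (0.53, adjusted P = 0.0169). The calls of Slc2a1, Eno1 and Tkt were lost whenever any of the 6 libraries of vehicle, CCM or LA was left out, with adjusted P values of 0.0502 to 0.207 for Slc2a1, 0.0706 to 0.155 for Eno1 and 0.0835 to 0.153 for Tkt. These 3 calls were also lost without TMM factors (0.40, 0.40 and 0.36), and that of Slc2a1 with DESeq2 (0.56, adjusted P = 0.0588). Pgm1 was lost without CCM replicate 1 (0.74, adjusted P = 0.0506). Pkm was called without either TCM replicate (0.43 and 0.60), Pgam1 without TCM replicate 1 (0.68) or LA replicate 1 (0.74), and Galk1, Pgls and Mdh1 without TCM replicate 2 (0.68, 0.65 and 0.47).

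**Figure D4:**
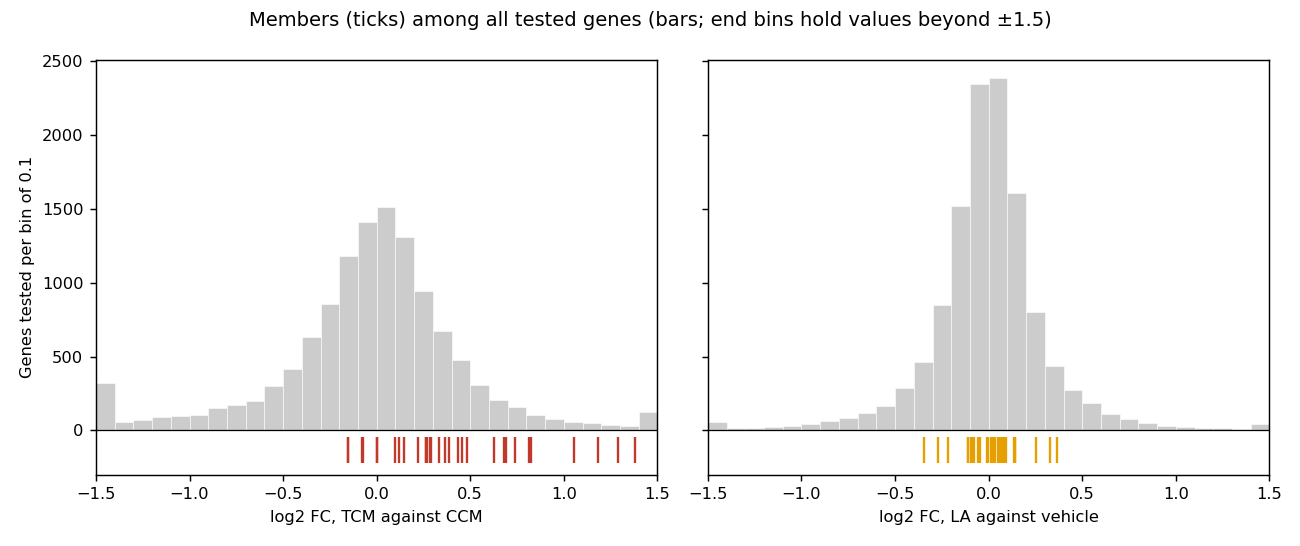
Log2 FC of all 12137 tested genes (gray bars, number of genes per bin of 0.1, with end bins holding values beyond 1.5) and of the 31 members (colored ticks below the axis), for TCM over CCM at left and LA over vehicle at right. With TCM the ticks run from -0.16 to 1.38 and lie mostly to the right of the center, and with LA they run from -0.35 to 0.36 around it.

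The choice of control mattered for some members, because CCM-treated FRCs tended to hold less of these transcripts than vehicle-treated FRCs. Both CCM libraries were below both vehicle libraries in 14 of 31 members, beside 24.0% of all tested genes, and above in 5, beside 25.8%. No member was called between CCM and vehicle in edgeR, where 0.898% of all tested genes were called higher and 0.404% lower. At an unadjusted P value under 0.05, 7 members were lower with CCM (Aldoa, Eno1, Got1, Hk2, Pfkl, Pgm1 and Slc2a1) and 1 was higher (Eno2), and DESeq2 called none. The log2 FC of CCM over vehicle was -0.42 ± 0.116 for Hk2, -0.32 ± 0.106 for Pgm1, -0.29 ± 0.103 for Aldoa and 0.62 ± 0.198 for Eno2. Hk2 was called lower with CCM when either TCM library was left out of the fit (adjusted P = 0.0333).

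Set against vehicle in place of CCM, TCM gave 12 higher calls and 1 lower call among the members, where 8.58% of all tested genes were called higher and 8.90% lower. Of the 12 genes called over CCM, 8 were also called over vehicle: Gpi1, Pfkl, Aldoa, Tpi1, Pgk1, Pgam1, Eno1 and Galk1. The other 4 were not, with log2 FCs over vehicle of 0.21 for Slc2a1 (adjusted P = 0.206), 0.31 for Hk2 (adjusted P = 0.0787), 0.24 for Pkm (adjusted P = 0.146) and 0.37 for Pgm1 (adjusted P = 0.0299). The 4 genes called over vehicle only were Pfkp (0.44), Pgm2 (0.43), Pgls (0.59) and Gpd2 (0.43), and Got1 was called lower (-0.43, adjusted P = 0.022). Gpi1, Pfkl, Aldoa, Tpi1 and Pgk1 had log2 FCs between 0.66 and 1.12 over vehicle, and those of Pgam1, Eno1 and Galk1 were 0.51, 0.46 and 0.90. Gapdh was not called over vehicle either (0.20, adjusted P = 0.248). The calls for Slc2a1, Hk2, Pkm and Pgm1 depended on CCM as the control. LA set against CCM gave 0 calls of members in edgeR in either direction, where 0.297% of all tested genes were called higher and 0.330% lower, with 5 members higher and 2 lower at an unadjusted P value under 0.05. DESeq2 was not run for these exchanged controls. The difference of the 2 effects includes the gap between the controls, so a CCM level under vehicle raises it. Of the 10 members called in that difference, only Tkt had a positive log2 FC of CCM over vehicle (0.07). Both set against vehicle, TCM and LA had log2 FCs of 0.21 and -0.09 for Slc2a1, 0.46 and 0.14 for Eno1, and 0.37 and -0.08 for Pgm1. TCM was not tested directly against LA.

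Neighboring genes outside the 34 were examined through 7 pathway lists. Of their 53 tested genes, 8 were called higher and 5 lower with TCM over CCM, beside 8.83% and 10.2% of all tested genes. None was called in either direction with LA over vehicle, beside 1.31% and 1.24% of all tested genes. With LA, edgeR gave 8 higher and 2 lower at an unadjusted P value under 0.05, and DESeq2 called none. At the lactate end of glycolysis 3 of 4 genes were called higher. Ldha, the lactate dehydrogenase subunit that favors lactate formation, was at 630 and 586 CPM in vehicle libraries, 529 and 556 in CCM libraries, 689 and 662 in LA libraries, and 1139 and 990.0 in TCM libraries (log2 FC over CCM 0.97 ± 0.107, adjusted P = 0.000119). Its TCM libraries stood clear of all others, as those of Aldoa and Pgk1 did. Ldhb (0.69) and Slc16a3, a lactate exporter (1.57), were also called, the latter at only 1.43 to 5.46 CPM in the 4 CCM and TCM libraries. With LA over vehicle all 4 genes had positive log2 FCs and none was called. The values were 0.15 ± 0.106 for Ldha, 0.54 ± 0.141 for Ldhb (adjusted P = 0.0777) and 1.18 ± 0.437 for Slc16a3 (adjusted P = 0.229). In the difference of effects Ldha was called (0.82, adjusted P = 0.00515), but Ldhb (0.15) and Slc16a3 (0.39) were not.

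Among the 5 tested genes of other transporters and hexokinases, Slc2a8 was called higher (log2 FC 0.71) and Slc2a9, a urate transporter, lower (-1.54). With TCM they were at 16.4 to 17.6 and 1.53 to 2.21 CPM. Over vehicle, Slc2a9 was called lower too, but Slc2a8 was not called. In the list of fructose bisphosphate control, Pfkfb4 was called higher in edgeR (0.51) but not in DESeq2 (0.53, adjusted P = 0.071). Pfkfb1 was called lower (-1.26), while Pfkfb3 and Tigar were not called. Pfkfb1 was at 2.23 and 2.41 CPM with vehicle, 4.3 and 4.49 with CCM, and 2.21 and 1.42 with TCM. Over vehicle in place of CCM, Pfkfb1 was not called and Pfkfb3 was called lower. H6pd, the glucose 6-phosphate dehydrogenase of the endoplasmic reticulum, was called higher (0.80 ± 0.134, adjusted P = 0.00169), while its cytosolic counterpart G6pdx was not called. Of 17 tested genes of galactose, glycogen and hexosamine metabolism, Galk2 (0.99) and Gys1, muscle-type glycogen synthase (0.62), were called higher. Me2, mitochondrial malic enzyme, was the single called gene of 8 shuttle partners and was lower (-0.44), but it was not called over vehicle.

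Of 7 tested transcription factors linked to glycolytic genes, none was called higher and 2 were called lower in edgeR. The shares over all tested genes were 8.83% and 10.2%. Myc was the one gene with a higher level at an unadjusted P value under 0.05 in edgeR, and DESeq2 called none higher. Its libraries were at 47.5 and 52.5 CPM with CCM and 70.7 and 69.4 with TCM, but at 81.8 and 57.4 with vehicle. Epas1, which encodes HIF-2 alpha, was at 12.3 and 8.12 CPM with CCM and 2.95 and 3.06 with TCM (log2 FC -1.77 ± 0.454, adjusted P = 0.0176), but its vehicle libraries were at 4.02 and 11.1 CPM. DESeq2 called Epas1 lower too. Trp53 had a log2 FC of -0.40 (adjusted P = 0.0144) but was under the fold threshold with DESeq2 (-0.38, adjusted P = 0.0287), in a line whose p53 locus carries the p53ER allele. Hif1a, whose protein is controlled mainly by its stability, was at 191 and 180 CPM with CCM and 154 and 184 with TCM, and it was not called. Protein levels were not measured in these libraries.

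Cell cycle genes moved with the same media. Of all tested genes, 10.2% were called lower with TCM over CCM and 1.31% higher with LA over vehicle. Of 6 proliferation markers, all 6 were called lower with TCM over CCM and 5 were called higher with LA over vehicle. Their summed level was 531 and 493 CPM in vehicle libraries, 794 and 751 in CCM libraries, 847 and 790.0 in LA libraries, and 308 and 345 in TCM libraries. The summed level of the members was thus highest in the TCM libraries, in which these markers were lowest, while the marker sums of the CCM and LA libraries overlapped. The part of proliferation in the changes of the members was not tested. The 2 TCM libraries also differed from each other more than other replicate pairs did, with a chi-square statistic per degree of freedom of 19.8 across genes against 3.28 to 7.32 for the other conditions. The spread shared by all conditions can therefore be too small for TCM and too large for the others. Fitted with only the libraries compared, 454 genes were called with LA over vehicle and 679 with CCM over vehicle. In the fit of all 8 libraries these numbers were 310 and 158. Pgls, Galk1 and Mdh1 were the tested members in which the first TCM library exceeded the second by the largest ratio.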

How the data were processed

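Poly(A) RNA of 8 cultures of the FRC line was sequenced, 2 per condition, and libraries were placed in conditions by their labels. The authors aligned directional reads to GRCm38 with STAR 2.7.0a and counted them per gene with featureCounts (Subread 2.0.1 per the labels), and they deposited whole-number counts without normalization. A second deposited table, named for normalized counts, held 12137 genes whose values equaled the raw counts in 100% of cases, so only the raw counts were used. All sample columns were assigned (0 unused). The authors' own tests used DESeq2 1.32.0. Whether counting used strand is not given in the sources used here.

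The test was run on genes reaching 10 counts in 3 or more libraries, with edgeR 4.0.16 in R 4.3.3 (TMM factors, robust quasi-likelihood F test, 1 mean per condition, all 8 libraries, BCV 0.0903), with Benjamini-Hochberg adjustment over all 12137 genes. Calls required adjusted P under 0.05 together with a log2 FC larger than 0.39 in size. The SE given for edgeR values is the size of the log2 FC divided by the square root of its F statistic. The treatments were each compared with their control and with the other control, the controls with each other, and the effects of the treatments by their difference. The model was also run on simulated counts with the same spread in every condition, which does not test it at the larger spread of the TCM libraries. With 2 libraries against 2, an exact permutation test cannot go below P = 0.333, so no such test was used. The members and the lists were chosen with earlier results of these data known, so no test was made over the members as a set. Values in each library are given for members called with TCM, with LA or in the difference, and for the 3 members of highest mean CPM. From the other lists, genes called with TCM or LA are named, at most 3 per list and direction. Gene positions and lengths came from GENCODE M21 and promoter sequences from RefSeq. Near-identical copies were stretches of at least 100 bases at 95% identity. CPM floors cover counting error only. Alternatives were DESeq2 1.42.0 and its size factors, no TMM factors, other filters on low counts, only the libraries compared, other fold thresholds, the replicate number as a block, and leaving out each library in turn.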

Additional observations from a re-analysis of the deposited data

Results flagged for a closer look

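The effects of TCM over CCM and of LA over vehicle differed for 10 of the 31 tested members in the test of the difference itself (edgeR, adjusted over all 12137 genes, 2 libraries per condition). On the log2 scale, the effect of TCM minus that of LA was 1.28 for Pfkl, 1.23 for Aldoa, 1.17 for Pgk1, 1.09 for Hk2, 0.94 for Gpi1, 0.91 for Tpi1, 0.77 for Pgm1, 0.55 for Slc2a1, 0.54 for Eno1 and 0.51 for Tkt. Adjusted P values ran from 0.000208 for Pfkl to 0.0429 for Slc2a1. In 9 of the 10 the gene was itself called higher with TCM over CCM, and Tkt was called in neither comparison alone. The difference also includes the gap between the controls, and the mean CCM level was under vehicle in each of the 10 but Tkt. The calls of Slc2a1, Eno1 and Tkt were lost without TMM factors and whenever a vehicle, CCM or LA library was left out. Groups of 2 libraries were too small to look for single libraries far from the others, and all data columns were used in the comparisons.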

How the results depend on the processing

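The count of members called with TCM over CCM, 12, stayed between 8 (log2 FC beyond 0.68) and 15 (adjusted P alone) under the alternatives tried, between 9 and 14 with 1 library left out, and the count with LA over vehicle stayed at 0. The same 9 genes were called with TCM in each planned refit: Hk2, Gpi1, Pfkl, Aldoa, Tpi1, Pgk1, Eno1, Pgm1 and Galk1. Slc2a1, Pgam1 and Pkm were lost without CCM replicate 1. Without TMM factors the median gene moved by -0.14 with TCM, and Slc2a1 (0.31) and Pkm (0.29) were lost, although relative to that median their values were 0.45 and 0.43, and the ratio of summed CPM went from 1.58 to 1.43. Calls in the difference of effects, 10, ranged from 6 (without CCM replicate 1) to 14 when 1 library was left out. Calls with CCM over vehicle went from 0 to 1 without a filter (Hk2) and to 2 with only the libraries compared (Eno2 and Hk2), and ranged from 0 to 1 with 1 library left out. Values that changed sign with 1 library left out were small and never called: with LA, Slc2a1 (-0.188 to 0.002), Pfkl (-0.008 to 0.2), Aldoa (-0.017 to 0.139), Gapdh (-0.167 to 0.063), Pgk1 (-0.088 to 0.127), Pgam1 (-0.112 to 0.274) and Pgm1 (-0.168 to 0.016), and with TCM, G6pdx (-0.154 to 0.005) and Got1 (-0.178 to 0.019). For members given only as ranges or counts, 57 of 819 values under the alternatives changed sign, none of them called and none beyond 0.248 in size. The causes were not tested.

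With the replicate number as a block, 13 members were called with TCM (Pgls added), 10 in the difference and 0 in each of the others. Deviations of same-numbered libraries correlated between conditions at values from -0.242 (CCM and TCM) to 0.353 (vehicle and LA). They were not above 0.1 in every pair, so the numbers were not taken to pair the libraries. For LA over vehicle, which had the highest correlation, the replicate number therefore entered only the block fits. With the CCM numbers crossed, an alternative added after seeing the data like the exchanged controls, 13 were called with TCM and 12 in the difference.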
